A study of Mus musculus with 23 samples.

Results

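Flow-through RNA of spinal cord lesions treated with a hydrogel that carried no named growth factor was compared with that of untreated lesions, at the level of single protein-coding genes. The comparison takes 4 libraries labelled hydrogel CT (title numbers 1683, 1724, 1759 and 1762) and 4 labelled SCI only (9596, 9843, 9874 and 9935), 8 of the 23 libraries of the series. All mice were young adults of the mGFAP-Cre-RiboTag cross, entered as wild type in the genotype label, and all, the controls included, had a severe crush of the cord (spinal cord injury, SCI) at thoracic level 10. In the hydrogel CT group a gel depot was injected 2 days after injury, and in both groups the central 3 mm of the lesion was taken at day 14. The labels leave the letters CT unexplained, and the deposited table names this group EmGel in its columns. Cre, driven by a mouse Gfap promoter, puts the ribosomes' hemagglutinin (HA) tag in place, and the flow-through is the RNA left after precipitation by that tag, which the study description assigns to cells other than astrocytes. No SCI only animal is labelled as having received a sham injection, so the gel and its injection into the cord cannot be told apart.

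A crush lesion of the cord fills with microglia and blood-derived macrophages that take up debris of cells and myelin, and is bordered by reactive astrocytes. Microglia and macrophages make the complement protein C1q and carry many lysosomal enzymes, with which they break down what they have taken up. Astrocytes clear glutamate and potassium from the extracellular space through transporters and pumps, and oligodendrocytes wrap axons in myelin. In bulk RNA, fewer cells of a type and less RNA per cell cannot be told apart.

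The libraries were shallow and unequal. The total count ran from 19607 to 85234 in the hydrogel CT libraries and from 2241603 to 5432938 in SCI only. Yam1, a noncoding locus that collects ribosomal RNA reads, took 44.0% ± 16.9 of the counts with hydrogel CT and 91.3% ± 1.38 with SCI only (SD, n = 4 each; exact two-sided permutation p = 0.0286, the smallest that 4 against 4 allows). Protein-coding genes were left with 4235 to 39164 counts in hydrogel CT and 26855 to 254741 in SCI only, and with 1508 to 3594 and 3417 to 4682 genes detected. Library 1683 was the shallowest of the 8, and 1 count there is worth 203 CPM (counts relative to the scaled library size), against 3.69 CPM in library 9596. The count-weighted GC content of the coding transcripts was 47.5% ± 0.193 with hydrogel CT and 50.2% ± 0.320 with SCI only, with no overlap (exact two-sided permutation p = 0.0286). The title numbers of the groups also come from separate number ranges. Gel, total count, Yam1 share, GC content and number range therefore separate the same libraries and cannot be told apart. Protein-coding counts overlapped, with 39164 in 1759 and 26855 in 9935 (exact two-sided permutation p = 0.0571).

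**Figure D1:**
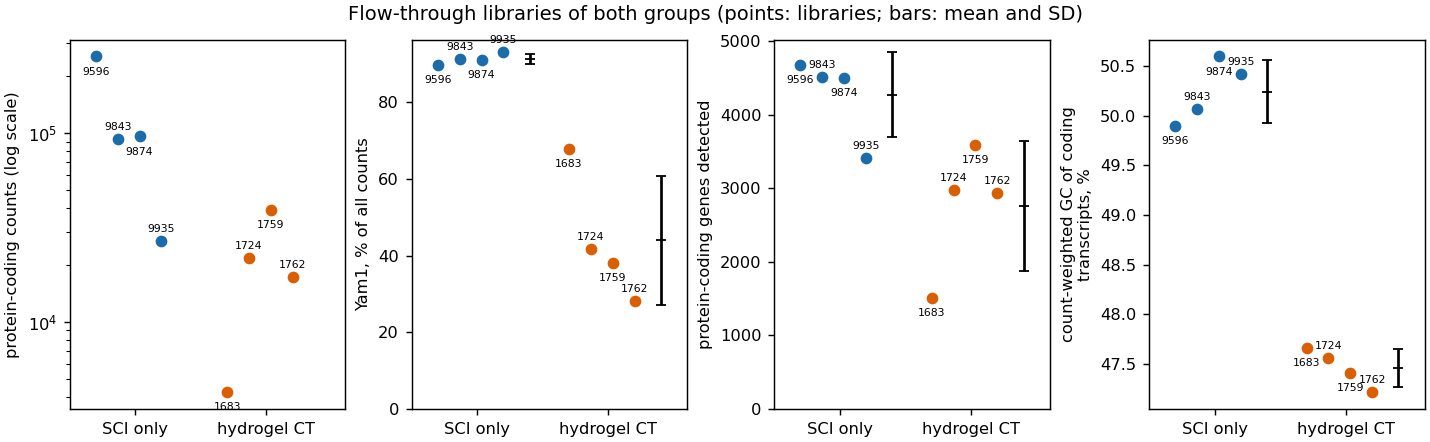
Each point is 1 flow-through library, marked with its title number, for SCI only (blue) and hydrogel CT (orange); the panels show protein-coding counts on a log axis, Yam1 as a percent of all counts, the number of protein-coding genes detected, and the count-weighted GC content of coding transcripts in percent, with bars for the mean and SD in the last 3. The groups do not overlap in Yam1 share or GC content, and library 1683 has 4235 coding counts and 1508 genes detected.

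Of the 4759 protein-coding genes in the table, 563 had enough counts to be tested. Among these, 122 (21.7%) differed at an adjusted p under 0.05 in edgeR's quasi-likelihood test (Benjamini-Hochberg over all genes tested), 54 of them higher (9.59%) and 68 lower (12.1%) with hydrogel CT. In all, 193 had an unadjusted p under 0.05. The CPM ranges of the groups did not overlap for 134 of the 563 genes (23.8%), among them 34 of the 54 genes called higher and 67 of the 68 called lower. The filter asks for about 286 CPM in 4 libraries. It was met through SCI only libraries alone by 37 genes, 34 of which were called lower, and through hydrogel CT libraries alone by 16 genes, 13 of which were called higher, so these had to differ. Their tests are descriptions, and they are named where they are described. Other genes also had 4 libraries of 1 group at that level, which was enough to have them tested. C1qa, Laptm5 and Rpl8 reached it in 4 SCI only libraries and 1 hydrogel CT library. Atp2a2, Cat, Gpm6a and Hnrnpa2b1 reached it in 4 hydrogel CT libraries and 1 SCI only library. In a fit that also held the 5 flow-through libraries of the gel with growth factors, 30 of 577 genes (5.2%) passed, 5 higher (0.867%) and 25 lower (4.33%), and 26 of the 122 were among them. Those 5 libraries held 2244 to 115689 protein-coding counts, and Yam1 took 13.7% (1732) to 88.6% (1645) of all counts. What their uneven depth does to the calls was not tested.

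**Figure D2:**
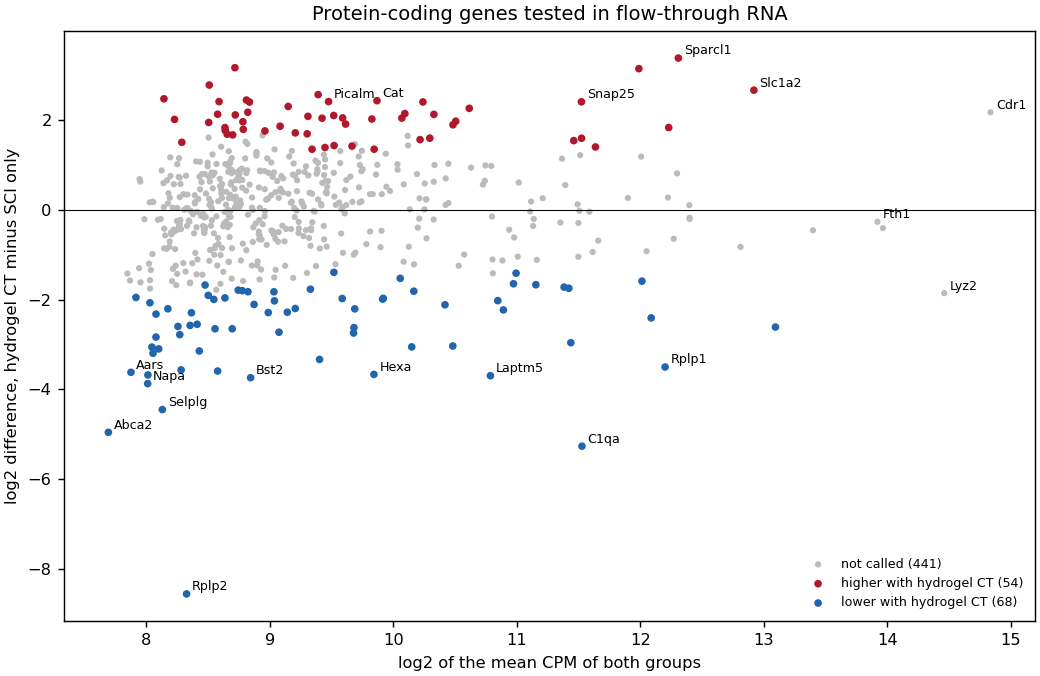
Each point is 1 of 563 tested protein-coding genes, with the log2 of its mean CPM over both groups on the x axis and the log2 difference of hydrogel CT minus SCI only on the y axis; red points were called higher and blue points lower. The leading decreases (C1qa, Rplp1, Laptm5) lie farther from 0 than the leading increases (Sparcl1, Slc1a2), and Rplp2, at 0 counts in all hydrogel CT libraries, lies lowest.

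Called genes differed in base composition. The median GC content of the transcript was 43.7% for the genes called higher, 56.0% for those called lower and 48.5% for all genes tested. Of 27 tested genes under 40% GC, 13 were called higher and none lower, and of 93 at 55% GC or more, 43 were called lower and none higher. Across the 563 genes, which are not independent replicates, the log2 difference and the GC content had r = -0.64. With a smooth GC trend removed from each library, r was -0.04, a value near 0 that the removal itself brings about. After it 45 genes (7.99%) passed, 25 higher (4.44%) and 20 lower (3.55%), of which 35 were among the 122. As GC content separates the groups, the correction cannot tell a GC trend from a difference between the groups. GC-corrected values are given below beside the groups. Counts of calls per group are to be read beside the shares over all genes tested, 9.59% higher and 12.1% lower. After the correction these shares were 4.44% and 3.55%, and the median log2 difference over all genes tested was -0.11, against 0.07 before.

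To show what the difference in composition looks like, a stretch of 60 bases is printed for the pair with the highest and the gene with the lowest GC content among the 20 genes with the largest changes. Each is the stretch of the coding sequence closest to its whole transcript in GC content, from GENCODE M21, written 5′ to 3′ with G and C in capitals. C1qa (coding bases 6 to 65; transcript GC 59.5%) and Selplg (coding bases 1 to 60; 58.6%) were called lower, and Wdr37 (coding bases 159 to 218; 37.0%) higher.
C1qa: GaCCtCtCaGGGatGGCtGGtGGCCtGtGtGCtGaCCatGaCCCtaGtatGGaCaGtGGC
Selplg: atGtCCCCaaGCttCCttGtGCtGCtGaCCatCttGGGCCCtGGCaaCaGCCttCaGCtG
Wdr37: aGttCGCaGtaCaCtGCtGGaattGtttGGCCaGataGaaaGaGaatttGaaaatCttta
Of the 60 bases, 36 are G or C in the C1qa stretch and 35 in that of Selplg, against 22 in that of Wdr37.

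**Figure D3:**
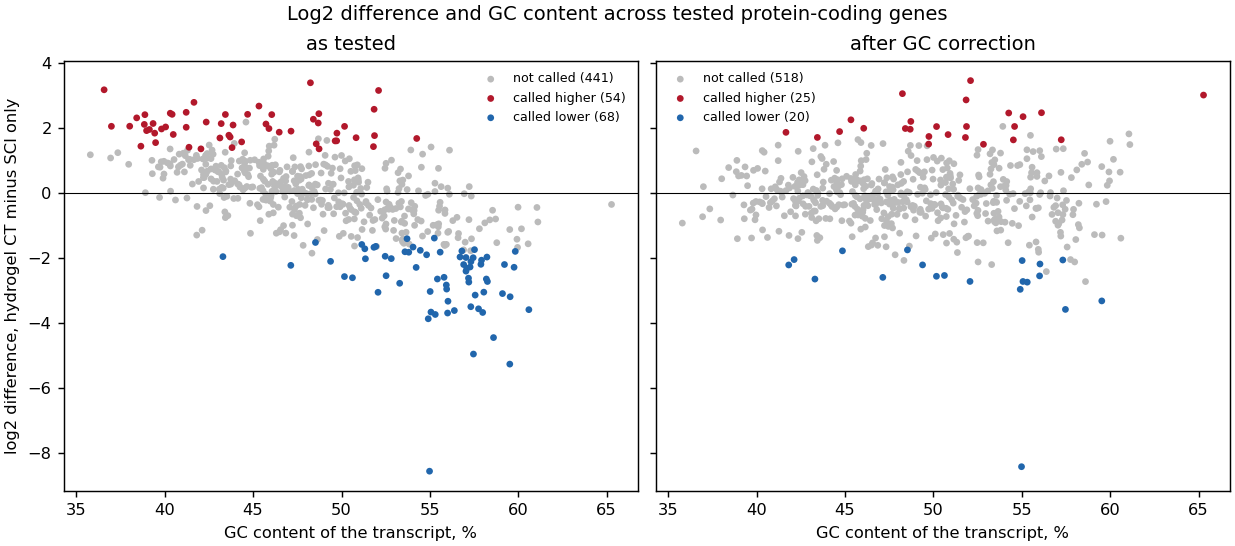
Each point is 1 tested protein-coding gene, with the GC content of its transcript in percent on the x axis and the log2 difference of hydrogel CT minus SCI only on the y axis, as tested (left) and after the GC correction (right). On the left the red points (called higher) sit at lower GC than the blue points (called lower), with medians of 43.7% and 56.0%; on the right 25 and 20 genes were called.

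Among the 563 genes tested, those of microglia and macrophages were called lower or not called with hydrogel CT, and none was called higher. Of 11 tested members of this marker list, 4 fell (C1qa, Laptm5, C1qc and Fcrls). The median log2 difference of the list was -1.41, against 0.07 over all genes tested. After the GC correction these medians were -0.26 and -0.11. Cd53, a tetraspanin of white blood cells, and Ly86, which binds a Toll-like receptor relative, went the other way without passing (0.97, adjusted p = 0.260 and 0.90, adjusted p = 0.260). Cx3cr1, the fractalkine receptor of microglia, was not among the 563. It was at 990 ± 982 CPM with hydrogel CT and 75.05 ± 91.9 CPM with SCI only (SD, n = 4 each), with overlapping groups. Of the other members not tested, Tmem119 (11.4 ± 22.8 against 323 ± 138 CPM) and Trem2 (18.2 ± 36.4 against 286 ± 95.5 CPM) were lower with hydrogel CT without overlap. With overlap, Cyba, Cd68 and P2ry6 were lower and Ctss higher. The summed level of the 7 defining markers in the table ran from 1013 to 25065 CPM with hydrogel CT and from 29764 to 74785 CPM with SCI only, without overlap. Lyz2 alone, which did not pass, ran from 405 to 19642 and from 21832 to 65688 CPM. The sums therefore largely follow Lyz2 and do not show that the markers agree. Called lower were 3 members after the GC correction, 2 without library 9843, 7 of 14 tested without library 1724, and 2 of 12 in the fit of 13 libraries, where Cx3cr1 was called higher. Over all genes tested, 20 of 563, 49 of 572, 111 of 863 and 25 of 577 were called lower in these fits. With a filter on a mean CPM of at least 100 in the 8 libraries, 17 members were tested, 1 called higher and 6 lower. Over all 2052 genes tested there, 66 were called higher and 175 lower. Values per library are given below for 1683, 1724, 1759 and 1762 (hydrogel CT) and for 9596, 9843, 9874 and 9935 (SCI only), in that order. CPM values are not per length and, apart from sums over markers, are compared only within a gene.

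C1qa (chr4:136895917-136898803, minus strand), which encodes the A chain of the complement starter C1q, was at 608, 182, 97.1 and 0 CPM with hydrogel CT and at 4484, 5395, 7459.9 and 5385 CPM with SCI only. Every SCI only library lay above every hydrogel CT library, and the log2 difference was -5.26 (adjusted p = 3.65e-05, SE 0.73). It rested on 11 against 2594 counts summed over the groups. Only 1 hydrogel CT library, 1683 on 3 counts, reached the level of the filter. After the GC correction it was -3.32, adjusted p = 0.00522, and it was called under every alternative in which it was tested, at -5.89 to -3.32. C1qc (chr4:136889804-136893065, minus strand), the C chain, was at 203, 2415, 1869 and 235 CPM with hydrogel CT and 3079, 4030.1, 6507 and 3602 CPM with SCI only, a log2 difference of -1.74 (adjusted p = 0.0381, SE 0.60). The groups did not overlap, and 1724 and 1759 were far higher than 1683 and 1762. C1qb (chr4:136880129-136886187, minus strand), the B chain, was at 0, 1823, 1262 and 528 CPM and 2437, 2221, 4445 and 1601 CPM, and with overlapping libraries its difference of -1.41 (adjusted p = 0.0760, SE 0.57) did not pass. The 3 chains are assembled together and their genes lie side by side on chromosome 4, yet after the GC correction the values were -0.23, adjusted p = 0.858 for C1qc and 0.07, adjusted p = 0.962 for C1qb.

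The share of C1qa among the counts of the 3 C1q genes was also taken within each library, which needs no library scaling. It was 44.8% (95% exact Clopper-Pearson interval 43.0 to 46.7), 46.3% (43.3 to 49.3), 40.5% (38.2 to 42.8) and 50.9% (44.96 to 56.7) in the SCI only libraries. With hydrogel CT it was 4.12% of 97 counts in 1724 (1.13 to 10.2), 3.01% of 133 counts in 1759 (0.825 to 7.52), 0 of 13 in 1762 (up to 24.7%) and 75% of 4 counts in 1683 (19.4 to 99.4). The intervals cover counting error only. The mean shares were 20.5% ± 36.4 and 45.6% ± 4.27 (SD, n = 4 each), and their difference did not pass (exact two-sided permutation p = 0.143), with 1683, on its 4 counts, above every SCI only library and the other three below. This share was looked at after the values of C1qa were seen.

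Laptm5 (chr4:130913125-130936141, plus strand), a lysosomal membrane protein of immune cells, was at 0, 592, 243 and 0 CPM with hydrogel CT and 2743, 3501, 2497 and 4548 CPM with SCI only. It was not counted in 2 of the 4 gel libraries, and the log2 difference was -3.69 (adjusted p = 6.77e-04, SE 0.66). Fcrls, an Fc receptor-like gene used as a marker of microglia, had 203 to 911 CPM with hydrogel CT and 1165 to 2186 CPM with SCI only (log2 difference -1.52, adjusted p = 0.0262). Lyz2, the lysozyme of macrophages, was at 405, 19642, 15973 and 2639 CPM and 23291, 65688, 30793 and 21832 CPM. All hydrogel CT libraries were below the lowest SCI only library, at -1.85, adjusted p = 0.123, which did not pass. Within the gel group, 1724 and 1759 held far more Lyz2 than 1683 and 1762. Selplg, the selectin ligand of white blood cells, had 2 counts in the gel libraries against 230 in SCI only, a ratio of pooled CPM of 0.050 (95% exact Poisson interval 0.00602 to 0.183). It met the filter through SCI only alone, and did not pass after the GC correction (-2.73, adjusted p = 0.0789). No marker of neutrophils, lymphocytes or red blood cells is in the table, so these were not measured here.

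Lysosome genes were called in both directions. Of 12 tested members, 5 fell and 2 rose, with a median log2 difference of -0.65 against 0.07 over all genes tested. After the GC correction these medians were -0.63 and -0.11. Hexa (chr9:59539540-59565109, plus strand), a subunit of the ganglioside-degrading hexosaminidase, was at 203, 137, 194 and 0 CPM with hydrogel CT and 1106, 2559.8, 1875 and 1274 CPM with SCI only (log2 difference -3.66 (adjusted p = 4.21e-04, SE 0.62)). Ctsd (chr7:142375911-142388038, minus strand), the aspartic protease cathepsin D, was at 203, 866, 1189.5 and 0 CPM and 4004, 6675, 5098 and 4148 CPM (log2 difference -2.96 (adjusted p = 0.00317, SE 0.66)). Neither gene had overlapping groups, and Hexa met the filter through SCI only alone. Ctsz, a cathepsin, had 0 to 775 CPM with hydrogel CT and 1819 to 2684 CPM with SCI only (log2 difference -2.11, adjusted p = 0.00523), and Npc2, which carries cholesterol out of lysosomes, 203 to 1823 CPM with hydrogel CT and 2765 to 5471 CPM with SCI only (-1.72, adjusted p = 0.0191). Ctsb, cathepsin B, had 3461 to 15267 CPM with hydrogel CT and 9619.6 to 16798 CPM with SCI only, and its difference of -0.45, adjusted p = 0.649 did not pass.

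The members that rose are membrane proteins of the lysosome, as is Laptm5, which fell (-3.69), so membrane location does not separate them. Lamp1, also of that membrane, did not pass (-0.68, adjusted p = 0.313). Lamp2, a main glycoprotein of that membrane, had 528 to 1481 CPM with hydrogel CT and 279.7 to 509 CPM with SCI only (log2 difference 1.44, adjusted p = 0.0312), and Laptm4a 608 to 1287 CPM with hydrogel CT and 327 to 454 CPM with SCI only (1.36, adjusted p = 0.0389). The transcript of Lamp2 has a GC content of 38.7%, and its difference turned to -0.07, adjusted p = 0.959 after the GC correction, under which 2 lysosome genes were called lower (Hexa and Laptm5) and none higher. Both increases were also lost when any 1 SCI only library was left out.

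Of 8 tested genes of lipid-laden phagocytes, 2 fell and none rose (median log2 difference -0.50). Plin2, which coats lipid droplets, was at 0, 91.1, 72.8 and 0 CPM with hydrogel CT and 306, 740.4, 394 and 509 CPM with SCI only, a log2 difference of -3.06 (adjusted p = 0.00481, SE 0.73) on 5 against 205 counts. It met the filter through SCI only alone, so it had to differ. Npc2 was the other, and after the GC correction it no longer passed (-1.51, adjusted p = 0.0766). Gpnmb, a glycoprotein of such macrophages, had 203 to 9342 CPM with hydrogel CT and 2438 to 11424 CPM with SCI only, and with overlapping groups its difference of -0.64, adjusted p = 0.555 did not pass. Apoe, the main lipid carrier of the nervous system, was at 0, 2598, 1699 and 117 CPM and 2463, 2814, 3274 and 2147 CPM (-1.13, adjusted p = 0.201), with 1724 inside the SCI only range.

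Of 3 tested genes of antigen presentation and interferon response, Bst2, an interferon-induced membrane protein that tethers virus particles, was the only call, a decrease. It was at 0, 45.6, 121 and 0 CPM with hydrogel CT and 1025, 603, 1119 and 764 CPM with SCI only, a log2 difference of -3.74 (adjusted p = 0.00104, SE 0.71) on 6 against 464 counts. It met the filter through SCI only libraries alone and so had to differ, and this call says nothing about the group.

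Astrocyte genes were called higher or not called, although the flow-through is the fraction left after astrocyte ribosomes are removed. Of 13 tested markers, 6 rose with hydrogel CT (among them Sparcl1, Slc1a2, Slc4a4, Aldoc and Aqp4) and none fell. The median log2 difference was 0.82 against 0.07 over all genes tested, and after the GC correction 0.79 against -0.11. The summed level of 7 defining astrocyte markers was 6927 to 51244 CPM with hydrogel CT and 6040 to 8333 CPM with SCI only, so the groups overlapped.

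Slc1a2 (chr2:102658659-102790784, plus strand), the glutamate transporter GLT-1, was at 37673, 2779.9, 4976 and 8270.4 CPM with hydrogel CT and 2736, 1830, 1295 and 2402 CPM with SCI only. All gel libraries were above all SCI only libraries, narrowly so between 1724 and 9596, and the log2 difference was 2.67 (adjusted p = 0.00911, SE 0.72). Sparcl1 (chr5:104079111-104113733, minus strand), a secreted protein that promotes synapses, was at 27546, 410.2, 2743 and 6452 CPM and 1055, 1111, 611 and 619 CPM. In 1724 it lay below every SCI only library, and the log2 difference was 3.39 (adjusted p = 0.00439, SE 0.80).

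In library 1683 each of these genes was far above the next highest library. Without it, the log2 difference was 1.28, adjusted p = 0.0429 for Slc1a2 and 1.78, adjusted p = 0.0342 for Sparcl1, and 4 of 14 tested markers were called higher. Over all genes tested without 1683, 86 of 893 were called higher. Slc4a4, a sodium bicarbonate cotransporter, was at 6279, 501, 607 and 2112 CPM and 793, 286, 321 and 728 CPM (log2 difference 1.98, adjusted p = 0.0278; without 1683 0.88, adjusted p = 0.250). Aldoc, the aldolase of astrocytes and the only call among 3 tested glycolysis and creatine kinase genes, had 182 to 1620.3 CPM with hydrogel CT and 72.8 to 299 CPM with SCI only (1.76, adjusted p = 0.0440; without 1683 1.29, adjusted p = 0.142). Aqp4, the water channel of astrocyte endfeet, had 2461 to 7899 CPM with hydrogel CT and 1201 to 2408 CPM with SCI only and no overlap (1.41, adjusted p = 0.0452; without 1683 0.97, adjusted p = 0.0887). Its transcript has 41.4% GC, and after the GC correction the difference was 0.45, adjusted p = 0.682. Sparcl1, Slc1a2 and Aldoc were called after that correction, and none of the 6 in the fit of 13 libraries. In that fit Gjb6, a gap junction gene not among the 563 tested, was called higher (3.59, adjusted p = 0.0279).

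Among the reactive astrocyte genes the only call was a decrease. Of 3 tested, Serpina3n, a secreted protease inhibitor induced by injury, fell, at 405, 1139, 1918 and 176 CPM with hydrogel CT and 3602, 2518, 3264 and 3056 CPM with SCI only (log2 difference -1.64 (adjusted p = 0.0312, SE 0.55)). The call was lost after the GC correction (-1.34, adjusted p = 0.136), in the fit of 13 libraries (-2.06, adjusted p = 0.123), and without library 1724, 1762 or 9596. Gfap, the intermediate filament of reactive astrocytes, whose promoter drives the Cre, was at 810.2, 957, 1505 and 1994 CPM and 2622, 2687, 2435 and 3457 CPM. All gel libraries lay below all SCI only libraries, and the difference of -1.04 (adjusted p = 0.109, SE 0.46) did not pass. It was 0.01, adjusted p = 0.993 after the GC correction.

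The list of solute pumps and ion channels shares members with the astrocyte markers. Of its 14 tested members 5 rose and none fell (median log2 difference 0.40). Slc25a4, the ADP and ATP carrier of the inner mitochondrial membrane, was at 1823, 547, 413 and 1877 CPM with hydrogel CT and 184, 212, 135 and 182 CPM with SCI only, a log2 difference of 2.57 (adjusted p = 0.00356, SE 0.58). It met the filter through hydrogel CT alone. Atp2a2, the calcium pump of the endoplasmic reticulum, had 509.8 to 1620.3 CPM with hydrogel CT and 182 to 444 CPM with SCI only (1.70, adjusted p = 0.0259). Kcnj10, the Kir4.1 potassium channel of glia, was at 9925, 1549, 2476 and 3929.9 CPM and 1519, 1015, 1139.7 and 2001 CPM (1.60, adjusted p = 0.0388), and without library 1683 at 0.82, adjusted p = 0.166. Of the 14, 4 were called higher after the GC correction, with Kcnj10 at 1.45, adjusted p = 0.108. In the fit of 13 libraries none of 14 was called, and without library 1683 3 of 15 were called higher and 1 lower. Over all 893 genes tested without 1683, 86 were called higher and 114 lower.

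**Figure D4:**
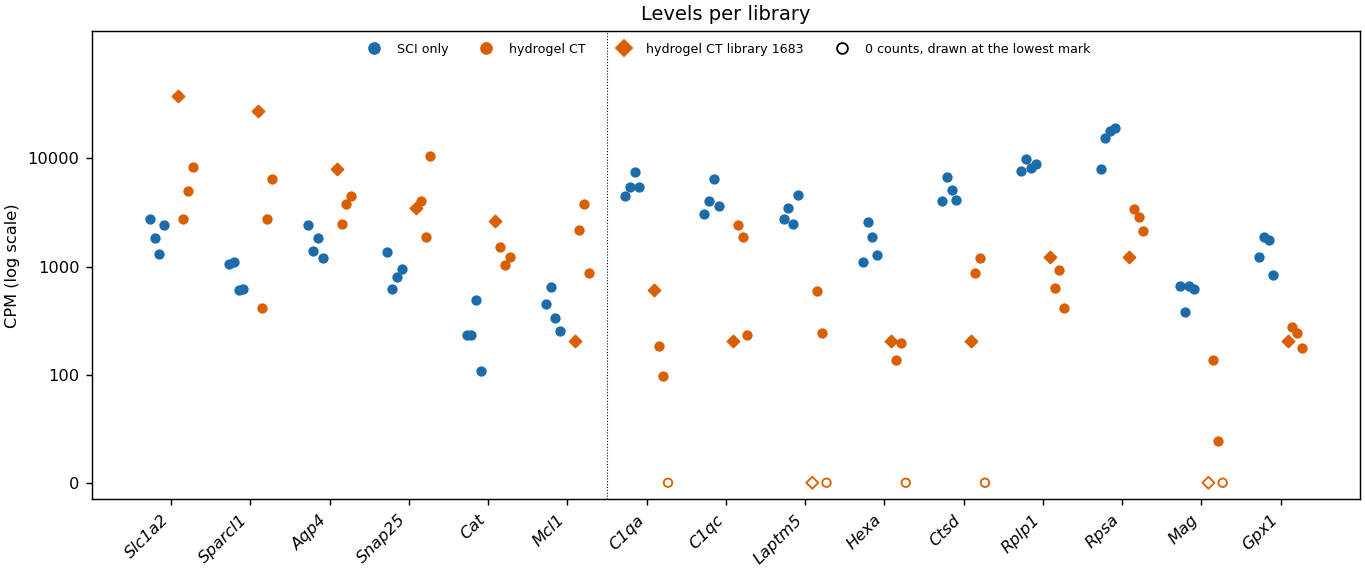
CPM on a log axis for each library of SCI only (blue) and hydrogel CT (orange), with library 1683 as a diamond and libraries at 0 counts as open symbols at the lowest mark; genes left of the dotted line were called higher and those right of it lower. For C1qa, Laptm5, Hexa, Rplp1 and Rpsa all SCI only points lie above all hydrogel CT points, and library 1683 holds the highest Slc1a2, Sparcl1 and Aqp4.

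Myelin genes were called about as often as all genes tested. Of 13 tested oligodendrocyte and myelin genes 1 rose (Ermn), 2 fell (Mag and Trf) and 10 were not called, with a median log2 difference of 0.28. Over all 563 genes tested, 441 were not called. Ermn, which encodes the myelin protein ermin, was at 203, 1185, 2161 and 1349 CPM with hydrogel CT and 431, 286, 259 and 291 CPM with SCI only (log2 difference 2.05 (adjusted p = 0.00523, SE 0.50)), with only 1 count in 1683 and a transcript of 38.0% GC. Mag, the myelin-associated glycoprotein, was at 0, 137, 24.3 and 0 CPM and 667, 381, 663 and 619 CPM (log2 difference -3.56 (adjusted p = 0.00256, SE 0.77)) on 4 against 298 counts and 57.8% GC. Trf, transferrin, had 0 to 194 CPM with hydrogel CT and 317 to 580.2 CPM with SCI only (-1.95, adjusted p = 0.0295). Mag and Trf met the filter through SCI only alone and so had to differ. After the GC correction the values became 0.44, adjusted p = 0.694 for Ermn, -2.05, adjusted p = 0.131 for Mag and -1.53, adjusted p = 0.143 for Trf.

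Of 8 tested neuron markers 1 rose and none fell (median log2 difference 0.19), where 9.59% rose and 12.1% fell over all genes tested. Snap25 (chr2:136713453-136782428, plus strand), a SNARE protein of synaptic vesicle release, was at 3443, 4010.4, 1869 and 10499 CPM with hydrogel CT and 1349, 614, 808 and 946 CPM with SCI only. The groups did not overlap and the log2 difference was 2.41 (adjusted p = 0.00382, SE 0.55). Nefl, the light neurofilament, had 608 to 3989 CPM with hydrogel CT and 1005 to 2583 CPM with SCI only and did not pass (0.61, adjusted p = 0.410). Of 9 tested synaptic genes Snap25 rose and Sv2a, a vesicle glycoprotein, fell (0 to 203 CPM with hydrogel CT and 456 to 619 CPM with SCI only; log2 difference -2.29, adjusted p = 0.0169). Sv2a met the filter through SCI only alone. Snap25 was at 1.71, adjusted p = 0.0455 and Sv2a at -1.53, adjusted p = 0.165 after the GC correction. Gpm6a, a neuronal membrane glycoprotein, was at 1823, 729, 995 and 1525 CPM and 568, 286, 197 and 146 CPM (1.92, adjusted p = 0.00984). Its transcript has 39.0% GC, and the call was lost after the GC correction (0.52, adjusted p = 0.628) and without library 9843, 9874 or 9935. Napa, which recycles SNARE complexes and met the filter through SCI only alone, had 3 counts against 246 (ratio of pooled CPM 0.0702 (95% exact Poisson interval 0.0144 to 0.207)).

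Of 17 tested genes of axon growth and the cytoskeleton 4 fell and none rose (median log2 difference -0.32). Actb, beta-actin, was at 405, 4147, 2525 and 879.8 CPM with hydrogel CT and 6637, 7278, 5657 and 5531 CPM with SCI only (-1.58, adjusted p = 0.0492). Tuba1b, an alpha-tubulin, had 203 to 469 CPM with hydrogel CT and 891 to 1528 CPM with SCI only (-1.39, adjusted p = 0.0389). Marcksl1, which binds actin at the membrane, had 0 to 194 CPM with hydrogel CT and 413 to 982 CPM with SCI only (-2.65, adjusted p = 0.00775), and Mapt, the axonal protein tau, 0 to 169.9 CPM with hydrogel CT and 307 to 1237 CPM with SCI only (-2.55, adjusted p = 0.0166). Marcksl1 and Mapt met the filter through SCI only alone. None of these 4 was called after the GC correction, and none in the fit of 13 libraries, in which Mapt was not tested. Whichever SCI only library was left out, 2 members of the list were called lower, where 48 to 82 of all genes tested were.

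Ribosomal protein genes were called lower or not called. Of 29 tested members of the cytosolic ribosome 7 fell (among them Rplp2, Rplp1, Rpl8, Rpsa, Rpl37a and Rpl14) and none rose. The median log2 difference was -0.48 against 0.07 over all genes tested, and after the GC correction -0.47 against -0.11. Ribosomal protein genes have many processed copies in the genome, and how reads of those were assigned is not given in the sources used here. Rplp2 (chr7:141447370-141451585, plus strand), an acidic protein of the ribosomal stalk, was not counted in any hydrogel CT library. It is 1 of 2 among the 7 that met the filter through SCI only alone. In SCI only it had 145, 76, 87 and 9 counts, or 535, 804, 901 and 327 CPM. Against a floor of 3 counts over the gel group, it was at least 18.4-fold lower (edgeR adjusted p = 0.000407). The list's median is the same with Rplp2 at that bound.

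Rplp1 (chr9:61913284-61914542, minus strand), its partner in the stalk, was at 1215, 638, 922 and 411 CPM with hydrogel CT and 7595, 9901, 8113 and 8842 CPM with SCI only. The groups lay far apart, and the log2 difference was -3.50 (adjusted p = 4.07e-04, SE 0.58). Rpsa (chr9:120127689-120132369, plus strand), a protein of the small subunit that also serves as a laminin receptor, was at 1215, 3418, 2889 and 2112 CPM and 8056, 15422, 17769 and 19030.3 CPM (log2 difference -2.61 (adjusted p = 0.00439, SE 0.61)). Rpl37a was at 1418, 684, 607 and 235 CPM and 2533, 3501, 3595 and 2619.8 CPM (-2.23 (adjusted p = 0.00439, SE 0.53)), and Rpl8 had 0 to 583 CPM with hydrogel CT and 1585 to 2601 CPM with SCI only (-3.05, adjusted p = 0.00193). After the GC correction 4 of the 29 were called lower, with Rplp1 at -2.06, adjusted p = 0.0266, Rpsa at -2.54, adjusted p = 0.0155 and Rpl37a at -2.60, adjusted p = 0.00522. Rpl8, at 58.0% GC, was at -1.43, adjusted p = 0.151. In the fit of 13 libraries 3 of 28 were called lower, without library 9874 4 of 27, and without library 1724 11 of 30. Over all genes tested these counts were 25 of 577, 48 of 557 and 111 of 863.

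Of 15 tested translation factors 2 fell and 1 rose. Eef2, which moves the ribosome along the message, was at 0, 2369.8, 1845 and 938 CPM with hydrogel CT and 3997, 8039, 9802 and 7823 CPM with SCI only (log2 difference -2.41 (adjusted p = 0.00775, SE 0.63)), and Eif4h, a helper of the initiation helicase, had 0 to 469 CPM with hydrogel CT and 666 to 1264 CPM with SCI only (-1.76, adjusted p = 0.0226). Eif5, which checks start codon choice and met the filter through hydrogel CT alone, rose, at 810.2, 592, 461 and 704 CPM and 114, 63.5, 62.2 and 109 CPM (log2 difference 2.79 (adjusted p = 0.00121, SE 0.54)). Eef1a1, which brings aminoacyl-tRNA to the ribosome, was at 1620.3, 27982, 17648 and 7508 CPM and 15272, 24339.5, 20659.9 and 12772 CPM and did not pass (-0.40, adjusted p = 0.727). Aars, the alanyl-tRNA synthetase, which met the filter through SCI only alone, had 3 against 195 counts (ratio of pooled CPM 0.0885 (95% exact Poisson interval 0.0181 to 0.263)). After the GC correction Eif5 was at 1.86, adjusted p = 0.0327, Eef2 at -0.99, adjusted p = 0.365 and Eif4h at -0.93, adjusted p = 0.343.

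Of 11 tested genes of iron handling and oxidative stress 1 rose (Cat) and 2 fell (Gpx1 and Trf). Over all genes tested 9.59% rose and 12.1% fell. Cat (chr2:103453849-103485160, minus strand), the catalase of peroxisomes, was at 2633, 1504, 1044 and 1232 CPM with hydrogel CT and 232, 233, 487 and 109 CPM with SCI only, a log2 difference of 2.44 (adjusted p = 0.00204, SE 0.51) without overlap. Gpx1 (chr9:108338903-108340343, plus strand), a glutathione peroxidase, was at 203, 273, 243 and 176 CPM and 1224, 1872, 1741 and 837 CPM, a log2 difference of -2.62 (adjusted p = 0.00136, SE 0.52) and again without overlap. Both enzymes remove hydrogen peroxide. Gpx1 and Trf met the filter through SCI only alone and so had to differ. After the GC correction Cat was at 2.20, adjusted p = 0.0121 and Gpx1 at -1.21, adjusted p = 0.151. Fth1, the heavy chain of ferritin, was at 3443, 25065, 10754 and 16893 CPM and 10099, 18659, 19313 and 19722 CPM and did not pass (-0.26, adjusted p = 0.814).

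Mitochondrial and lipid genes held few calls. Of 9 tested subunits of oxidative phosphorylation 2 rose and none fell: Ndufa4 had 291 to 1290.4 CPM with hydrogel CT and 0 to 265 CPM with SCI only (2.12, adjusted p = 0.0169) and Uqcrfs1, the Rieske protein of complex III, 365 to 608 CPM with hydrogel CT and 99.6 to 218 CPM with SCI only (1.51, adjusted p = 0.0389). Both met the filter through hydrogel CT alone and so had to differ. With a filter on a mean CPM of at least 100 in place of it, 23 members were tested, none was called higher and 1 lower. Of 5 tested cholesterol and lipid genes Scd1, which desaturates fatty acids, rose, at 5874, 775, 777 and 1818 CPM and 524, 614, 414 and 655 CPM (1.90, adjusted p = 0.0182), and without library 1683 it was at 0.92, adjusted p = 0.151. None of these 3 was called after the GC correction.

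Among other genes with the largest changes, Mcl1, an inhibitor of apoptosis and the 1 tested member of that list, was at 203, 2187, 3787 and 879.8 CPM with hydrogel CT and 449.8, 645, 332 and 255 CPM with SCI only (log2 difference 2.15 (adjusted p = 0.00730, SE 0.55)). Library 1683, with 1 count, lay below the SCI only range, and the other three gel libraries above it. Hnrnpa2b1, an RNA-binding splicing regulator and the only call among 6 tested splicing and RNA-binding genes, was at 1215, 729, 753 and 1525 CPM and 476, 148, 228 and 0 CPM (2.09, adjusted p = 0.0169). The call was lost after the GC correction (1.47, adjusted p = 0.139) and without library 1762, 9843, 9874 or 9935. Picalm, which shapes clathrin-coated vesicles and met the filter through hydrogel CT alone, had 405 to 2279 CPM with hydrogel CT and 109 to 290.1 CPM with SCI only (2.42, adjusted p = 0.00322), Mtpn, a regulator of actin capping, 866 to 1869 CPM with hydrogel CT and 199 to 559 CPM with SCI only (2.03, adjusted p = 0.00471), and Wdr37, a WD repeat gene, 1554 to 2053 CPM with hydrogel CT and 169 to 982 CPM with SCI only (2.05, adjusted p = 0.00743). The transcripts of Picalm, Mtpn and Wdr37 have at most 40.4% GC, and after the GC correction their values were 1.25, adjusted p = 0.149 for Picalm, 0.75, adjusted p = 0.418 for Mtpn and 0.19, adjusted p = 0.873 for Wdr37.

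Decreases on few counts stood opposite these. Abca2, a lipid transporter of myelinating cells, had 1 against 187 counts (ratio of pooled CPM 0.0308 (95% exact Poisson interval 7.75e-04 to 0.174)), and Bmyc, a relative of Myc, 3 against 244 (ratio 0.0707 (95% exact Poisson interval 0.0145 to 0.209)). Both met the filter through SCI only alone. Timp2, an inhibitor of matrix proteases and the only call among 2 tested matrix remodelling genes, had 203 to 1893 CPM with hydrogel CT and 2684 to 3357 CPM with SCI only (-1.41, adjusted p = 0.0454). The call was lost after the GC correction (-0.74, adjusted p = 0.437), and when any 1 SCI only library, 1724 or 1762 was left out.

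Among the genes that took most counts, several did not pass. Cdr1 was at 4253, 31855, 26922 and 128279 CPM with hydrogel CT and 10110, 7542, 10827 and 13863 CPM with SCI only and did not pass (2.18, adjusted p = 0.0722). It overlaps the antisense circular RNA locus Cdr1as, and without a stated strand setting their reads cannot be told apart. Cst3, a secreted inhibitor of cathepsins, had 4151 to 6517 CPM with hydrogel CT and 6574 to 13832 CPM with SCI only and did not pass (-0.82, adjusted p = 0.291). Cpe, a carboxypeptidase that trims peptide hormones, rose, at 11545, 3418, 7137 and 8036 CPM and 3064, 2242, 1772 and 1201 CPM without overlap (log2 difference 1.84 (adjusted p = 0.0169, SE 0.54)).

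**Figure D5:**
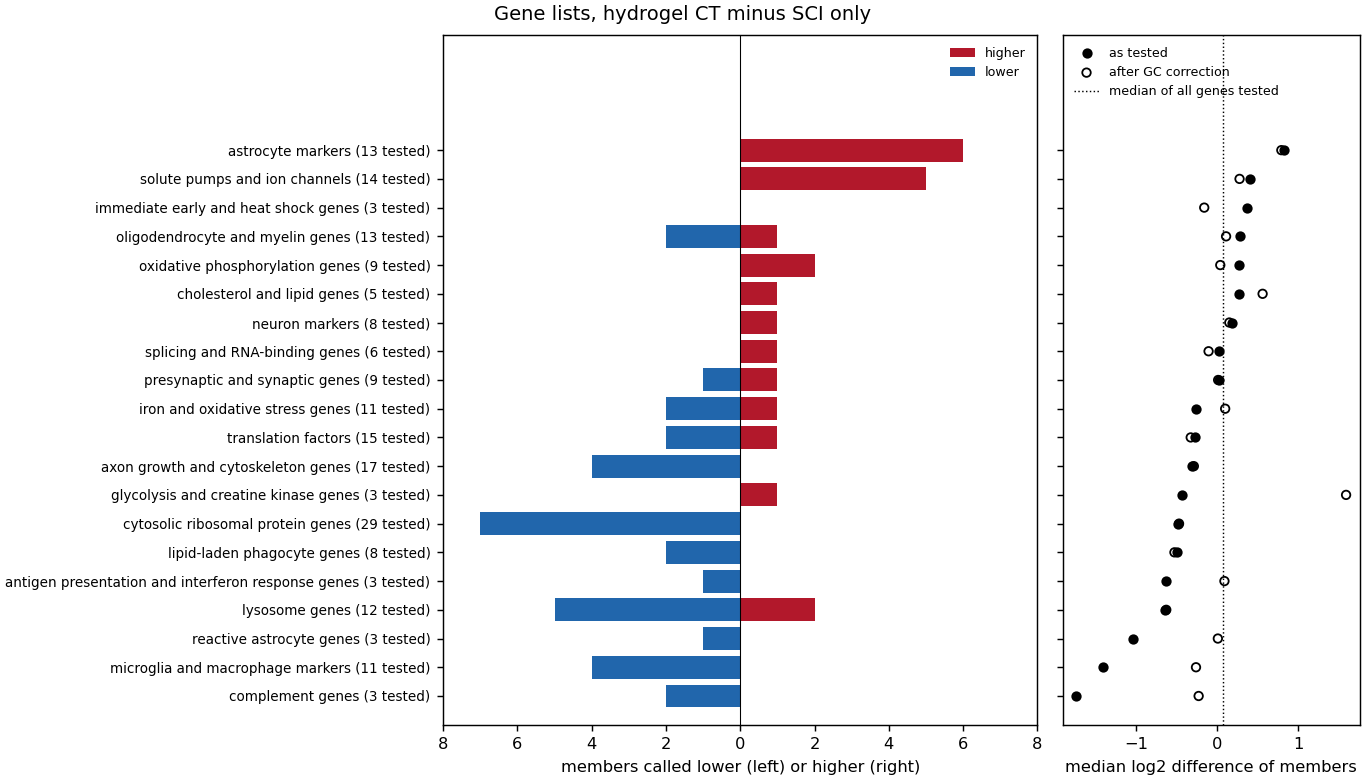
For each gene list with at least 3 tested members, the left panel gives the number of members called lower (to the left, blue) and higher (to the right, red), and the right panel the median log2 difference of hydrogel CT minus SCI only over its tested members, as tested (filled) and after the GC correction (open). Astrocyte markers stand at the top with 6 higher and none lower, and complement genes and microglia and macrophage markers at the bottom with 2 and 4 lower.

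The gel with growth factors shows how the leading genes stood in a further group of gel libraries. Of 577 genes tested for the gel with growth factors minus hydrogel CT (5 against 4 libraries, 13 in the fit), none passed (0%), in edgeR's quasi-likelihood test, and 23 had an unadjusted p under 0.05. Of the 122 genes above, 103 were tested there, and 4 had an unadjusted p under 0.05. On the scale of that fit, C1qa had 10.2, 119 and 262 CPM as the lowest, median and highest of the 5 libraries, and the log2 difference from hydrogel CT was -0.57 (adjusted p = 0.975, SE 1.06). Rplp1 had 643, 950.3 and 4722 CPM (1.06 (adjusted p = 0.975, SE 0.72)), and Slc1a2 765, 2851 and 33293 CPM (-0.54 (adjusted p = 0.975, SE 0.88)). A p that misses the threshold does not show that the gels act alike, and the hydrogel CT libraries are shared by both comparisons. The growth factor libraries held 2244 to 115689 protein-coding counts, and their GC content was 48.0% ± 0.581 (n = 5).

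The precipitated (HA) fraction has 3 libraries of hydrogel CT and 4 of SCI only. Whether the gel difference was larger or smaller in flow-through than in HA was tested as an interaction over 4123 protein-coding genes in edgeR's quasi-likelihood test. None passed (0%), and 432 had an unadjusted p under 0.05. Of the 122 genes called in flow-through, 21 had an unadjusted p under 0.05 there. The HA differences were taken from this same fit, which also holds the flow-through libraries. Some of the leading genes passed in HA there and others did not. In HA the difference was -4.96 (adjusted p = 0.00252, SE 0.96) for C1qa, 3.06 (adjusted p = 0.00125, SE 0.54) for Cat and 3.24 (adjusted p = 0.00897, SE 0.76) for Snap25. Rplp1 also passed there, at -1.86 (adjusted p = 0.0211). Not passing in HA were Sparcl1 (1.34, adjusted p = 0.195), Laptm5 (-2.66, adjusted p = 0.0553), Plin2 (-0.38, adjusted p = 0.735) and Napa (-0.52, adjusted p = 0.665), among others. The difference between fractions was -0.76 (adjusted p = 0.862, SE 1.24) for C1qa, -2.11 (adjusted p = 0.280, SE 0.66) for Rplp1 and -3.12 (adjusted p = 0.280, SE 0.98) for Plin2. The GC content of coding counts in HA was 48.8% ± 0.332 with hydrogel CT (n = 3) and 51.5% ± 0.384 with SCI only (n = 4), apart in the same direction as in flow-through.

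The authors' deposited table gives its own fold changes for this pair of groups. At a false discovery rate under 0.05, the authors' deposited table lists 20 of the 4759 protein-coding genes as higher and 355 as lower. All 122 genes called here have the same sign in the authors' deposited table, and 59 of them pass there. The median log2 fold change of the 4759 genes in the authors' deposited table is -0.79. Over the same genes, with no filter on low counts, the median log2 difference computed here was -0.57.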

How the data were processed

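Per the labels' protocols, cDNA was made from 5 ng of flow-through RNA by low-input amplification (NuGEN Ovation V2), sheared and sequenced in pairs. The submitters' processing notes name CASAVA 1.8.2, edgeR and the build mm10. Which aligner, counting program, strand setting and annotation release were used is not given in the sources used here. The authors deposited whole-number read counts per Ensembl transcript, 5001 rows with at least 11 counts over the flow-through libraries, so rarer transcripts do not appear. The authors' deposited table also holds, per the file headers, edgeR log2 fold changes, p-values and false discovery rates between treatments. Not used were 45 columns of other per-sample values in the flow-through and HA tables.

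Counts were summed per gene symbol. Yam1, Lars2, 74 Gm and 3 Mir symbols, and 35 rows without a symbol (0.00424% to 0.319% of a library's counts), were left out of library sizes, which kept 4819 symbols. Gene type, coordinates (mm10), transcript GC content and length came from GENCODE M21, which matched 99.1% of rows. A gene with 1 listed transcript was matched by that transcript, and 4697 of the 4759 coding genes had only 1.

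Genes were tested with edgeR 4.0.16 (R 4.3.3), using its quasi-likelihood test, TMM scaling and filterByExpr (minimum count 10) in the 8 libraries. P-values were two-sided, with Benjamini-Hochberg adjustment over every gene tested and a threshold of 0.05. SE is the log2 difference divided by the square root of its F statistic. CPM scales each count by its library size after TMM. Pairs of libraries within a group differed beyond counting noise (chi-square per degree of freedom 4.11 to 10.7), so none was a copy of another. The labels do not state that each library is a separate animal, and p-values then reflect only the spread over these libraries, which may be technical. Single measures were compared by exact permutation. Intervals of counts and shares are at 95% and cover counting error only. The GC correction removed from each library a natural spline (4 degrees of freedom) of log2 CPM deviation on transcript GC content and was entered as an offset. The script was tested on simulated data.

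Named genes are the 10 called higher and the 10 called lower with the largest log2 difference (mean count of at least 20, no overlap between groups), the 8 with the highest mean CPM in each group, and leading and called members of the gene lists. The members and the gene lists were chosen with earlier results of these data known. Some genes under these rules are not reported here. Cd53, Ly86, Gjb6, Cx3cr1 and the other markers of microglia and macrophages outside the 563 tested genes were named after their values were seen. Lists whose calls are not counted in the text held none. Alternatives were other scalings and tools (DESeq2 1.42.0, limma 3.58.1), other filters, thinned SCI only libraries, the fit of all 13 flow-through libraries, the GC correction and leaving out each library.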

Additional observations from a re-analysis of the deposited data

Results flagged for a closer look

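Among the named genes, 8 of 134 groups of 4 libraries held a highest or lowest library far from the others by Dixon's criterion. Its chance rate of about 1 in 20 is for normal values and does not hold for low counts. With hydrogel CT, Slc1a2 was at 37673 CPM in library 1683, against 2779.9 to 8270.4 CPM in the others, and Wdr37 at 2053 CPM in 1762, against 1554 to 1620.4 CPM. Abca2 (24.3 CPM in 1759, which is 1 count), Bmyc (137 CPM in 1724) and Napa (72.8 CPM in 1759) were counted in only 1 of the 4 gel libraries. With 0 in the others, any count there would have been flagged. With SCI only, Fth1 was lowest in 9596 at 10099 CPM, against 18659 to 19722 CPM in the others. Mag was lowest in 9843 at 381 CPM, against 619 to 667 CPM, and Tuba1b highest in 9935 at 1528 CPM, against 891 to 994 CPM.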

How the results depend on the processing

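The counts of called genes moved with the processing, and the cause was not tested. From 122 (54 higher, 68 lower), they became 265 (70, 195) with no filter on low counts, 241 (66, 175) with a mean CPM of at least 100, 189 (61, 128) with Yam1, Lars2, Gm and Mir rows kept, and 174 (59, 115) with DESeq2's Wald test. They became 61 (26, 35) with the SCI only libraries thinned, where 269 genes were tested, 45 (25, 20) with the GC correction, and 30 (5, 25) with 13 libraries in the fit. Leaving out 1 library gave 68 to 200 calls (20 to 86 higher, 48 to 114 lower): 68 without 9874, 80 without 9843, 188 without 1724 and 200 without 1683. The GC correction without library 1683, chosen after seeing the data, gave 35 (17, 18). With library totals, TMMwsp, DESeq2 size factors, limma voom or coding genes only, there were 116 to 131 calls. The median log2 difference was 0.07 with TMM and -0.11 with DESeq2 size factors. Of the 122, 71 passed with no filter and 35 after the GC correction, and 2 turned sign there (Lamp2 and Thra).

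Over 1356 pairs of a named gene and an alternative, 1051 kept direction and side of the threshold, 287 kept the direction but no longer passed, 6 newly passed and 12 changed direction. The direction changed after the GC correction for Apoe (0.81), C1qb (0.068), Cst3 (0.63), Fth1 (0.35), Gfap (0.0069) and Lamp2 (-0.065), and, without library 1683 as well, for Apoe (1.01), Aqp4 (-0.036), C1qb (0.26), Cst3 (0.58), Fth1 (0.61) and Gfap (0.071).

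For the difference between fractions, a fit with the title number as replicate block called 1 gene in place of 0, higher in flow-through: Jakmip3 (log2 8.51, SE 1.71, edgeR adjusted p = 0.00537), which had 26 counts in the gel libraries of the flow-through. Leaving out 1 library gave 0 to 1 calls, the 1 being Jakmip3 without HA hydrogel CT 1724. Deviations from the group means correlated at 0.0063 to 0.0801 over the 7 shared numbers, none over 0.1, so the pairing rests on the study description of both fractions coming from the same tissue. The flow-through comparison itself has no shared numbers between groups. Growth factors minus hydrogel CT gave 0 calls under each alternative run. At a count of 1 worth 203 CPM in library 1683, low genes were not measurable there.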

Other observations

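The GC correction also called 10 genes that had not passed before it, and those below were chosen after their values were seen. Ncan, the core protein of the proteoglycan neurocan and the 1 tested member of the list of chondroitin sulfate proteoglycans and tenascins, was at 595 ± 364 CPM with hydrogel CT and 184 ± 111 CPM with SCI only (SD, n = 4 each). Its log2 difference was 1.41 (SE 0.60, edgeR adjusted p = 0.0962), and 2.35 (SE 0.61, edgeR adjusted p = 0.0266) after the correction. Ccl9, a chemokine and the 1 tested member of the chemokine and cytokine list, was at 281 ± 150 CPM and 676 ± 353 CPM, a log2 difference of -1.15 (edgeR adjusted p = 0.168), and of -2.05 (edgeR adjusted p = 0.0374) after the correction. Rhob, a small GTPase of endosomes, was called higher at 2.47 (edgeR adjusted p = 0.00655), and Tubb4a, a tubulin of myelinating cells, at 1.64 (edgeR adjusted p = 0.0314).

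Some genes with 1 tested member in their list did not pass in either fit. Thy1, which marks fibroblasts as well as neurons, was at 199 ± 196 CPM with hydrogel CT and 682 ± 308 CPM with SCI only. Tubb5, counted with the proliferation genes, was at 168 ± 199 CPM and 608 ± 42.0 CPM, and Olig1, of oligodendrocyte progenitors, at 652 ± 803 CPM and 602 ± 216 CPM.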
